A study of Mus musculus with 42 samples.

Results

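Of the 19151 genes in the deposited expression table of sorted mouse microglia, 7 are described here: Traf7, Rnf121, Spast, Pknox1, A430033K04Rik, D830035M03Rik and AF529169. They were selected on a strong fall of their values in Ki67+ against Ki67- libraries of these same data, and that fall is given below as a description with no test. Among the 14910 genes that passed a filter on low values (a mean of at least 7 on the log2 scale in 1 group or more), their falls, averaged over genotype and age, held ranks 3 (Rnf121), 14 (A430033K04Rik), 15 (Traf7), 38 (Spast), 54 (Pknox1), 99 (D830035M03Rik) and 119 (AF529169). They are thus 7 of the most reduced genes, not the 7 most reduced. At the lower edge, AF529169 had a difference of -1.65, beside -1.65 for Tle1 and -1.64 for Clpb, the genes just before and after it.

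Microglia are the resident macrophages of the brain, and Ki67 is a nuclear protein that is present in cycling cells. The libraries came from CD11b+/CD45+ cells of male mice on a C57BL/6 background that were fixed with paraformaldehyde and sorted by Ki67 staining. WT mice were littermates of APP/PS1 mice, a line in which transgenes for mutant APP and presenilin 1, known to be driven by the prion promoter and expressed mainly in neurons, lead to amyloid deposits with age. Each library held RNA of a small pool of sorted cells, and the study asked how proliferating microglia differ from non-proliferating ones as amyloid accumulates. There were 42 libraries. At the age of 4 months, WT mice gave 5 Ki67+ and 5 Ki67- libraries and APP/PS1 mice 4 of each. At 6 months, WT mice gave 2 Ki67+ and 3 Ki67- libraries and APP/PS1 mice 2 of each. At 12 months, WT mice gave 4 Ki67+ and 3 Ki67- libraries and APP/PS1 mice 4 of each. The labels name no treatment for any group. The labels do not say which libraries came from 1 mouse, so the errors measure the spread between libraries, which may be technical. It is the spread left after the authors' batch correction, so the errors and p-values may be too small.

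All values are the authors' log2 values after normalization and batch correction with 10 surrogate variables. Their depth cannot be read, and no value in the table is a count. Libraries of WT Ki67- microglia at 12 months were left with little spread, a median SD of 0.026 over genes against 0.149 to 0.317 in the other groups, although no pair of libraries shared an identical value. The transcript of Ki67 itself, Mki67, had a mean of 8.17 ± 0.65 in Ki67+ libraries, against 7.95 ± 0.55 in Ki67- libraries (SD, n = 21 each), and its mean difference of 0.14 (SE 0.18) did not pass the limma test (adjusted p = 0.506). By stratum, Mki67 was higher in Ki67+ libraries of APP/PS1 mice at 4 months, by 1.26 (SE 0.39, adjusted p = 0.0222). It was lower in those of WT mice at 12 months, with a difference of -1.09 (SE 0.42, adjusted p = 0.0362), against the direction of their label. The other 4 strata did not pass. The label was set by staining of the protein, while these values are RNA. The WT Ki67- libraries at 12 months are also those with little spread. Of the 12 microglia markers, 8 were lower and 1 higher in Ki67+ libraries, and their mean level ran from 11.8 to 13.4 in Ki67+ and from 12.9 to 13.5 in Ki67- libraries, so the markers of the labelled cell type were present in every library. All 9 astrocyte markers were higher in Ki67+ libraries, with a mean level from 8.97 to 11.1 against 7.59 to 8.69 in Ki67- libraries. Of 10 neuron markers 5 were higher and 2 lower, of 10 endothelial and mural markers 5 higher and 2 lower, of 9 oligodendrocyte markers 4 higher and 0 lower, and of 8 peripheral immune markers tested 1 higher and 4 lower. In the same contrast, 34.5% of all tested genes were called higher and 29.7% lower. Marker counts near these shares are not read as a shift of a cell type. The 2 WT Ki67+ libraries at 6 months stood apart, with a mean microglia marker level of 11.8 and 11.9 against at least 12.8 in the other 40 libraries, and the Ki67+ libraries of both genotypes at 6 months had oligodendrocyte marker levels from 11.1 to 12.9. WT Ki67- libraries at 6 months reached 11.4 (mean 10.3), and the means of the other 9 groups ran from 8.35 to 9.42. The part of these markers in the values below was not tested. In a pool of cells, fewer cells of a type and less RNA per cell cannot be told apart.

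The 7 genes are not known to share a function. Traf7 encodes a RING-type ubiquitin ligase with WD40 repeats that binds the kinase MEKK3. Rnf121 encodes a membrane-bound RING ubiquitin ligase of the endoplasmic reticulum and Golgi. Spast encodes spastin, an ATPase that cuts microtubules, acts with ESCRT-III at membranes and is mutated in hereditary spastic paraplegia. Pknox1 encodes PREP1, a TALE homeodomain transcription factor that partners PBX proteins. A430033K04Rik and AF529169 still carry clone names. The first is annotated as protein-coding and is assumed here, without a check, to be a zinc-finger gene, so that reads may be shared with related copies. The second is believed to be an older symbol of Minar1, which encodes a membrane protein linked to NOTCH2 and mTOR signalling, but the reference tables do not pair these names, so its position is not given. D830035M03Rik is a long non-coding RNA.

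In the RefSeq annotation of GRCm38.p6, Traf7 lies on chromosome 17 (24508850 to 24527938, minus strand), Pknox1 on chromosome 17 (31564722 to 31607693, plus strand) and Spast on chromosome 17 (74337923 to 74391115, plus strand), so that 3 of the 6 genes with a position share this chromosome, which holds 4.83% of the tested genes matched by symbol. Rnf121 lies on chromosome 7 (102019137 to 102072437, minus strand), A430033K04Rik on chromosome 5 (138622859 to 138648917, plus strand) and D830035M03Rik on chromosome 9 (120490421 to 120492581, minus strand). In GENCODE M21, on the same build, the longest coding transcript had 3003 bases in Traf7, 2545 in Rnf121, 3038 in A430033K04Rik, 4672 in Spast and 4252 in Pknox1, and the only transcript of D830035M03Rik had 1041 bases, which is at percentile 6.1 of the matched genes. Retained-intron transcripts were annotated for 3 of the 6 genes, 8 of 26 transcripts in Traf7, 3 of 14 in Pknox1 and 1 of 7 in Rnf121, against 55.7% of the matched genes with at least 1. The library kit did not mark strand. Of the 1041 exonic bases of D830035M03Rik, 143 overlap exons of Eif1b on the opposite strand. Traf7 shares 110 exonic bases with Caskin1 and 267 with Rab26, out of 5872, and Pknox1 shares 155 of 6933 with an antisense gene. Reads from these bases cannot be told apart.

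RefSeq promoters (GRCm38.p6, 250 bases before to 50 after the start) were given for 5 of the 7 genes, and the 3 that hold a CCAAT box are printed. Capitals mark matches to any of the motifs named below, on either strand, in a 5′ to 3′ run along the gene's strand. Traf7 is at chr17:24527889-24528188 (minus), Rnf121 at chr7:102065116-102065415 (minus) and A430033K04Rik at chr5:138622609-138622908 (plus). The starts used for Rnf121 and Spast lie inside the RefSeq spans given above and are not the outer ends of these genes.
Traf7: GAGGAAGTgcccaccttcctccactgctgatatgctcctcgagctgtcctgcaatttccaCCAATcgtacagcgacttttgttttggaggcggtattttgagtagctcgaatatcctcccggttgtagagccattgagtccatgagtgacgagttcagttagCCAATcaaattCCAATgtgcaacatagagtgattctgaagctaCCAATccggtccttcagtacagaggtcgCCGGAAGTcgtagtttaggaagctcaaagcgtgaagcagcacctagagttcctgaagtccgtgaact
Rnf121: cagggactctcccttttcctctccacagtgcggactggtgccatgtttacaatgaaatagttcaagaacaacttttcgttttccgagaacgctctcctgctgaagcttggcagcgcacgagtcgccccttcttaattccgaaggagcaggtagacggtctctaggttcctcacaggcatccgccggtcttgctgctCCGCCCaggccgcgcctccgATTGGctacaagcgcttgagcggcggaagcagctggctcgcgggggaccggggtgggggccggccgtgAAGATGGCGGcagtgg
A430033K04Rik: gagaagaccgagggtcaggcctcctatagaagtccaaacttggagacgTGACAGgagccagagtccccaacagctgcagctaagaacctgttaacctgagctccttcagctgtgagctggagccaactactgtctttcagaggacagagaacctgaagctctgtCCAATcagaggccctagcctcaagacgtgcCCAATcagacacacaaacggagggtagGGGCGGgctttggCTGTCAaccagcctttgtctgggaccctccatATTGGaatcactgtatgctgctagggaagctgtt
The CCAAT box (CCAAT) stood 4 times in the Traf7 window, 3 times in that of A430033K04Rik and 1 time in that of Rnf121, and 37.4% of all 32851 promoters hold it. The GC box (GGGCGG) was in 4 of the 5 promoters, all but Traf7, against 35.7% of all promoters. The YY1 motif was in Rnf121, 34 bases past its start, and in 0.852% of all promoters. The ETS letters CCGGAAGT and the PU.1 letters GAGGAAGT were both in Traf7 and in 3.89% and 3.2% of all promoters. TGACAG, the core bound by PREP1 and TGIF proteins, was in A430033K04Rik and in 19.2% of all promoters. The E-box CACGTG was in D830035M03Rik and in 7.15%. No match in the 5 windows was found for the cell-cycle letters TTTGAA (17.9% of all promoters), TTTGGCGC (0.514%) and TTTCGCGC (0.323%), or for the NRF1 (0.971%) and ZBTB33 (0.466%) motifs. Motifs were searched without regard to overlap between them, and a match in a window is a description only.

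All 7 genes were lower in Ki67+ than in Ki67- libraries in each genotype and age, without overlap between the libraries of the 2 states within any of these 6 strata, and over all 42 libraries the 2 states did not overlap for Traf7, Rnf121, Pknox1 and D830035M03Rik. Non-overlap in this direction held for 1.84% of the tested genes in all 6 strata and for 0.349% over all libraries. Stratum by stratum it held for 14.7%, 31.5% and 35.6% of genes in WT mice and for 11.5%, 30.0% and 11% in APP/PS1 mice, by rising age. Since the choice of the genes fixes this direction, nothing is read from it. The median step of the 7 genes at 4, 6 and 12 months was -1.95, -3.04 and -2.44 in WT mice, against -2.09, -1.43 and -1.34 in APP/PS1 mice, on the log2 scale. The median over all tested genes lay between -0.03 and 0.09 in these strata.

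**Figure D1:**
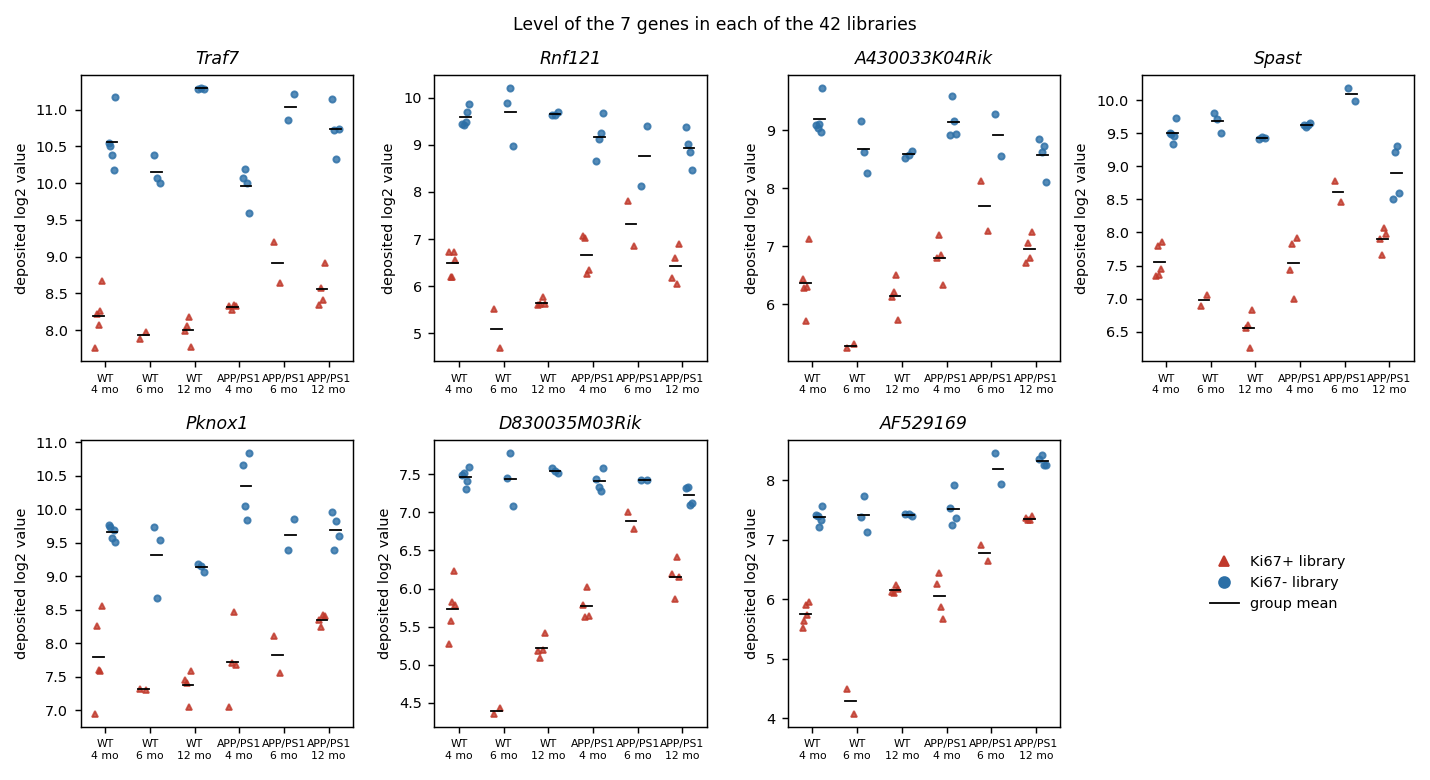
Deposited log2 value (y axis) of each of the 7 genes in each of the 42 libraries, by genotype and age (x axis), with triangles for Ki67+ libraries, circles for Ki67- libraries and short lines for group means. The Ki67+ libraries lie below the Ki67- libraries of the same genotype and age in every panel, and the 2 WT libraries at 6 months are the lowest Ki67+ group for all genes but Spast.

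Rnf121 had the largest average step, -3.02 (SE 0.15), and -3.02 without the 6-month libraries. In WT mice at 4 months its Ki67+ libraries had 6.73, 6.20, 6.20, 6.73 and 6.57 and its Ki67- libraries 9.44, 9.43, 9.49, 9.69 and 9.85. At 6 months they had 5.51 and 4.69 against 9.88, 10.21 and 8.98, and at 12 months 5.60, 5.62, 5.77 and 5.62 against 9.63, 9.62 and 9.70. The Ki67+ level was lowest at 6 and 12 months while the Ki67- level stayed within 8.98 to 10.21. In APP/PS1 mice the Ki67+ libraries had 7.06, 7.02, 6.26 and 6.34 at 4 months against 8.65, 9.12, 9.25 and 9.67. At 6 months they had 7.80 and 6.86 against 8.12 and 9.39, and at 12 months 6.17, 6.61, 6.04 and 6.91 against 9.38, 9.02, 8.84 and 8.47. The step thus ran from -4.59 (SE 0.42) in WT to -1.43 (SE 0.46) in APP/PS1 mice at 6 months, where both states of APP/PS1 mice lay closer together. In the order of the 12 group means, from 5.10 in WT Ki67+ at 6 months to 9.69 in WT Ki67- at 6 months, 8 of the 11 pairs of neighbours had overlapping ranges, and the widest gap, 1.43, lay between the Ki67+ and Ki67- groups of APP/PS1 mice at 6 months.

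Traf7 differed by -2.30 (SE 0.11) on average. In WT mice its Ki67+ libraries had 7.76, 8.23, 8.07, 8.26 and 8.68 (4 months), 7.89 and 7.97 (6 months) and 7.99, 8.06, 8.17 and 7.77 (12 months). The Ki67- libraries had 10.55, 10.50, 10.39, 10.18 and 11.17 (4 months), 10.38, 10.07 and 10.00 (6 months) and 11.28, 11.30 and 11.28 (12 months). The Ki67+ levels in WT mice overlapped between the ages, while the Ki67- level at 12 months was the highest of all 12 groups and did not overlap its neighbour. In APP/PS1 mice the Ki67+ libraries had 8.33, 8.28, 8.35 and 8.33 (4 months), 9.19 and 8.64 (6 months) and 8.35, 8.58, 8.41 and 8.92 (12 months). The Ki67- libraries had 10.08, 10.20, 10.00 and 9.59 (4 months), 10.86 and 11.21 (6 months) and 11.14, 10.72, 10.33 and 10.73 (12 months). The step was widest in WT mice at 12 months, -3.29 (SE 0.26), and narrowest in APP/PS1 mice at 4 months, -1.64 (SE 0.24). All 12 group means were at least 7.93, and the gap of 1.05 between the highest Ki67+ and the lowest Ki67- group was the largest in the order.

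Spast differed by -2.02 (SE 0.10) on average. Its Ki67+ libraries in WT mice had 7.35, 7.79, 7.35, 7.44 and 7.85 (4 months), 6.88 and 7.06 (6 months) and 6.55, 6.59, 6.25 and 6.83 (12 months), and those in APP/PS1 mice had 7.43, 7.82, 7.00 and 7.91 (4 months), 8.77 and 8.46 (6 months) and 7.91, 7.65, 8.07 and 7.98 (12 months). The WT libraries at 12 months were the lowest of these and did not overlap the next group, while the 2 APP/PS1 libraries at 6 months were the highest. The Ki67- libraries had 9.50, 9.49, 9.34, 9.46 and 9.73 (4 months), 9.81, 9.72 and 9.50 (6 months) and 9.42, 9.45 and 9.43 (12 months) in WT mice, and 9.62, 9.60, 9.62 and 9.66 (4 months), 10.19 and 9.99 (6 months) and 8.51, 9.21, 9.31 and 8.60 (12 months) in APP/PS1 mice. Of the Ki67- groups, that of APP/PS1 mice at 12 months had the lowest mean, 8.91 ± 0.41 (SD, n = 4), and its range overlapped that of the APP/PS1 Ki67+ libraries at 6 months. The step was -2.88 (SE 0.24) in WT and -1.0 (SE 0.23) in APP/PS1 mice at 12 months.

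Pknox1 differed by -1.90 (SE 0.15) on average, between 21 Ki67+ libraries from 6.95 to 8.56 (median 7.60) and 21 Ki67- libraries from 8.67 to 10.84 (median 9.69). Its highest and its lowest Ki67+ library both came from WT mice at 4 months, where the 5 libraries spread with an SD of 0.63. The step ran from -2.62 (SE 0.32) in APP/PS1 mice at 4 months to -1.34 (SE 0.32) in APP/PS1 mice at 12 months, and 9 of the 11 pairs of neighbouring group means overlapped in range. The Ki67+ libraries of APP/PS1 mice at 12 months, 8.34, 8.24, 8.42 and 8.41, formed the highest Ki67+ group by mean.

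A430033K04Rik differed by -2.31 (SE 0.14) on average, between Ki67+ libraries from 5.25 to 8.12 (median 6.51) and Ki67- libraries from 8.10 to 9.73 (median 8.91). Only the higher of the 2 APP/PS1 Ki67+ libraries at 6 months reached the Ki67- range, in which it lay above 1 library. Its Ki67+ libraries at 6 months had 5.25 and 5.32 in WT and 8.12 and 7.26 in APP/PS1 mice, the lowest and the highest Ki67+ groups. The step was -3.40 (SE 0.39) in the first and -1.23 (SE 0.43) in the second.

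D830035M03Rik, the long non-coding RNA, varied little among Ki67- libraries, from 7.09 to 7.78 with an SD of 0.17 (n = 21), and more among Ki67+ libraries, from 4.36 to 7.00 with an SD of 0.66 (n = 21). The Ki67+ libraries had 5.27, 5.58, 5.83, 6.23 and 5.78 (4 months), 4.36 and 4.43 (6 months) and 5.18, 5.09, 5.19 and 5.41 (12 months) in WT mice. In APP/PS1 mice they had 5.78, 5.63, 6.02 and 5.63 (4 months), 7.00 and 6.78 (6 months) and 6.19, 5.86, 6.42 and 6.14 (12 months). The 2 genotypes overlapped at 4 months and did not overlap at 6 or 12 months, with APP/PS1 libraries higher. The Ki67- libraries of WT mice had 7.49, 7.51, 7.30, 7.41 and 7.59 (4 months), 7.45, 7.78 and 7.09 (6 months) and 7.57, 7.54 and 7.51 (12 months), and those of APP/PS1 mice 7.43, 7.32, 7.28 and 7.58 (4 months), 7.42 and 7.43 (6 months) and 7.32, 7.33, 7.10 and 7.12 (12 months). Its step was the smallest of the 42 in APP/PS1 mice at 6 months, -0.54 (SE 0.29), and -3.04 (SE 0.26) in WT mice at that age. No Ki67+ group reached the mean of 7 that the filter asked for, so this gene passed the filter through its Ki67- groups only. Its tests below use both states, and so also Ki67+ values under that level. Eif1b, whose exons it overlaps and which was looked up after the values were seen, had a mean of 9.03 ± 0.40 in Ki67+ libraries, against 9.95 ± 0.55 in the others (SD, n = 21 each), and was lower without overlap in 5 of the 6 strata.

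AF529169 had the smallest average step, -1.65 (SE 0.09), which was -1.33 (SE 0.09) without the 6-month libraries. In WT mice the Ki67+ libraries had 5.51, 5.63, 5.90, 5.74 and 5.95 (4 months), 4.50 and 4.08 (6 months) and 6.13, 6.11, 6.24 and 6.18 (12 months). In APP/PS1 mice they had 6.26, 6.44, 5.88 and 5.67 (4 months), 6.91 and 6.65 (6 months) and 7.36, 7.33, 7.33 and 7.39 (12 months). The APP/PS1 libraries at 12 months were the highest Ki67+ libraries and lay within the range of WT Ki67- libraries. The Ki67- libraries of WT mice had 7.41, 7.40, 7.22, 7.34 and 7.57 (4 months), 7.39, 7.74 and 7.13 (6 months) and 7.43, 7.43 and 7.41 (12 months). Those of APP/PS1 mice had 7.53, 7.25, 7.92 and 7.36 (4 months), 8.46 and 7.93 (6 months) and 8.35, 8.42, 8.26 and 8.26 (12 months). Both states were thus higher with the transgenes at the later ages, while all WT Ki67- groups had means between 7.39 and 7.42. Of the 12 group means only 1 Ki67+ group, APP/PS1 at 12 months, reached 7, and the same held for Rnf121 and A430033K04Rik with APP/PS1 at 6 months. Tests of AF529169, Rnf121 and A430033K04Rik below thus also use Ki67+ values under 7.

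**Figure D2:**
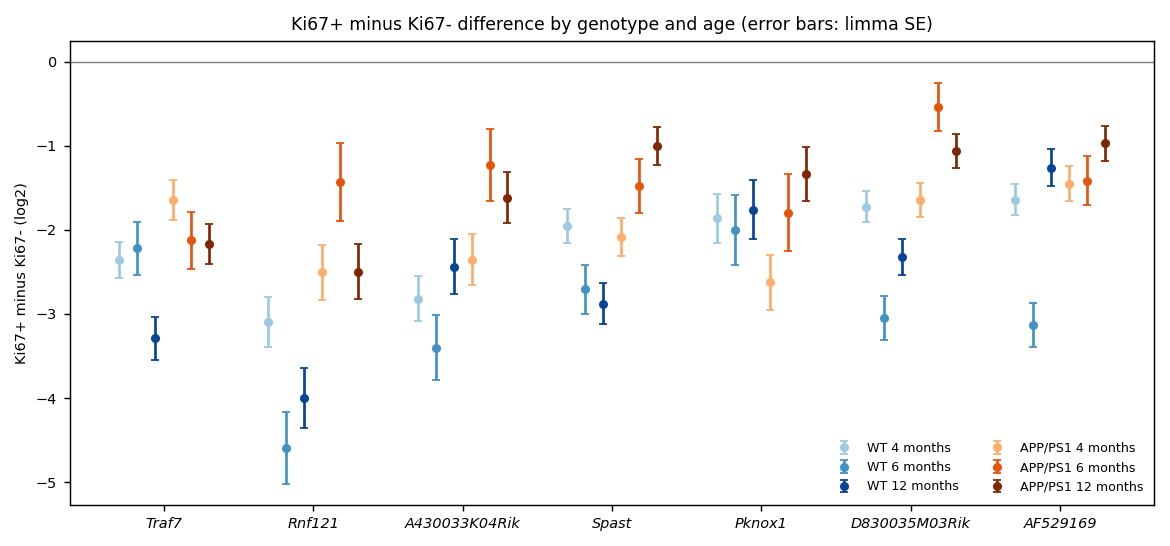
Ki67+ minus Ki67- difference on the log2 scale (y axis) of the 7 genes (x axis) in each genotype and age, blue for WT and orange to brown for APP/PS1 mice, with limma standard errors as bars. All 42 differences lie below 0, from -4.59 for Rnf121 in WT mice to -0.54 for D830035M03Rik in APP/PS1 mice, both at 6 months.

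The steps of the 2 genotypes differed in both directions at 4 months. At the later ages the differences had 1 sign, but some lay within their error of 0. The difference of the steps, APP/PS1 minus WT, had a median of 0.19 over the 7 genes at 4 months, with 5 positive and 2 negative, from -0.76 (SE 0.43) for Pknox1 to 0.72 (SE 0.32) for Traf7. The median was 1.71 at 6 months and 1.12 at 12 months, with all 7 positive at both ages. Over all tested genes the median was -0.01, 0.03 and -0.04 at 4, 6 and 12 months. At 6 months it was 3.17 (SE 0.63) for Rnf121, 2.51 (SE 0.39) for D830035M03Rik, 2.17 (SE 0.58) for A430033K04Rik, 1.71 (SE 0.39) for AF529169 and 1.23 (SE 0.43) for Spast, but 0.10 (SE 0.46) for Traf7 and 0.21 (SE 0.62) for Pknox1. At 12 months it was 1.88 (SE 0.33) for Spast, 1.50 (SE 0.48) for Rnf121, 1.26 (SE 0.30) for D830035M03Rik and 1.12 (SE 0.35) for Traf7, and from 0.29 to 0.82 for the other 3 genes. These differences use the contrast that chose the genes, so nothing is read from their sign, and they were not tested. Those at 6 months include the 2 WT Ki67+ libraries with the low microglia marker level given above.

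The level of the 7 genes averaged over both Ki67 states asks another question, whether it differed between APP/PS1 and WT mice of the same age, and was tested with limma over all 14910 genes. The tests share their libraries with the choice of the genes, and a low WT Ki67+ value enters both, so they are not independent of that choice. The WT Ki67+ libraries at 6 months, the lowest Ki67+ group for all genes but Spast, enter the comparison at that age. The share of all genes beside each count is a description and not support. At 4 months 0 of the 7 genes passed, against 0.0201% of all genes called higher and 0.0134% lower in APP/PS1 mice, and their differences ran from -0.23 for Traf7 to 0.31 for Pknox1. No unadjusted p at 4 months was below 0.05 among the 7, the lowest being 0.122 for AF529169. At 6 months 5 of the 7 were higher in APP/PS1 mice, against 3.25% of all genes, and none were lower, against 1.05%. The differences were 1.63 for AF529169 (SE 0.20, adjusted p = 1.79e-05), 1.32 for A430033K04Rik (SE 0.29, adjusted p = 0.00845), 1.24 for D830035M03Rik (SE 0.19, adjusted p = 0.000465), 1.03 for Spast (SE 0.22, adjusted p = 0.00619) and 0.94 for Traf7 (SE 0.23, adjusted p = 0.0182). Rnf121, at 0.65 (SE 0.31, adjusted p = 0.264), and Pknox1, at 0.41 (SE 0.31, adjusted p = 0.503), did not pass. At 12 months 2 of the 7 were higher, against 9.08% of all genes, and 0 lower, against 9.13%, which were AF529169 with 1.05 (SE 0.15, adjusted p = 3.64e-05) and Pknox1 with 0.77 (SE 0.24, adjusted p = 0.0245). Spast, at 0.41 (SE 0.17, adjusted p = 0.0841), did not pass.

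The difference at 6 months was larger in the Ki67+ than in the Ki67- libraries, by more than 1 for 5 of the 7 genes. In Ki67+ libraries, APP/PS1 minus WT was 2.49 (SE 0.29) for D830035M03Rik, 2.49 (SE 0.29) for AF529169, 2.41 (SE 0.43) for A430033K04Rik, 2.23 (SE 0.46) for Rnf121 and 1.64 (SE 0.32) for Spast. In the Ki67- libraries of the same age it was -0.01 (SE 0.26), 0.78 (SE 0.27), 0.24 (SE 0.39), -0.93 (SE 0.42) and 0.41 (SE 0.29) for these genes. Rnf121 thus had opposite signs in the 2 states, and D830035M03Rik did not differ beyond its error in Ki67- libraries. For the other 2 genes both states lay within their errors of each other, with 0.99 (SE 0.34) in Ki67+ and 0.89 (SE 0.31) in Ki67- libraries for Traf7, and 0.52 (SE 0.46) and 0.31 (SE 0.42) for Pknox1. These values within 1 state are a description. They rest on 2 WT and 2 APP/PS1 Ki67+ libraries, and the 2 WT libraries are those with the low microglia marker level of 11.8 and 11.9, against 13.2 and 13.4 in the 2 APP/PS1 libraries. Their oligodendrocyte marker level was 11.1 and 11.6, against 12.0 and 12.9 in the APP/PS1 libraries, and its part in these differences was not tested. Leaving out 1 of the 2 APP/PS1 Ki67+ libraries, replicate 1, ended the calls of Traf7 (adjusted p = 0.108) and A430033K04Rik (adjusted p = 0.0728), which left 3 genes, and leaving out APP/PS1 Ki67- replicate 2 ended that of Traf7 (adjusted p = 0.0627).

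**Figure D3:**
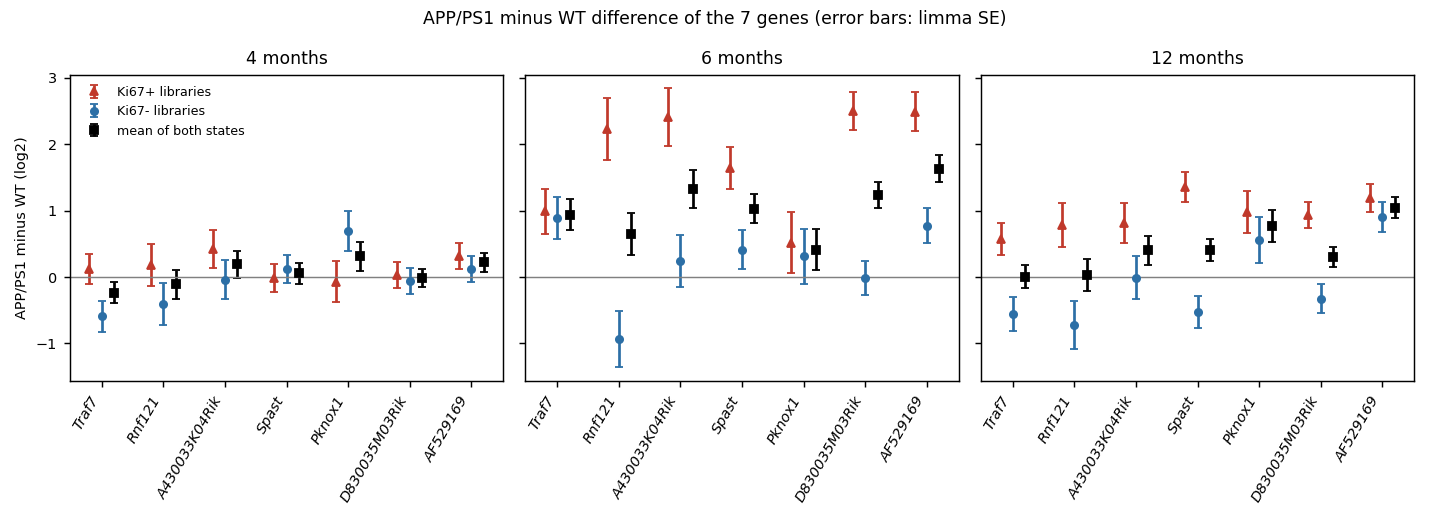
APP/PS1 minus WT difference on the log2 scale (y axis) of the 7 genes (x axis) at 4, 6 and 12 months, in Ki67+ libraries (triangles), in Ki67- libraries (circles) and as the mean of both states (squares, tested), with limma standard errors as bars. At 6 months the Ki67+ values reach 2.49, while the Ki67- values run from -0.93 to 0.89.

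At 12 months the differences in Ki67+ libraries ran from 0.57 (SE 0.24) for Traf7 to 1.35 (SE 0.23) for Spast. For each gene the value lay above that in Ki67- libraries. For Traf7 and Rnf121 (0.78, SE 0.33) the size was similar in both states, with opposite signs. In Ki67- libraries, Traf7 (-0.56, SE 0.26), Rnf121 (-0.72, SE 0.35), Spast (-0.53, SE 0.24) and D830035M03Rik (-0.32, SE 0.22) lay below 0 and A430033K04Rik at -0.01 (SE 0.33), while all 5 lay above 0 in Ki67+ libraries. AF529169 (0.90, SE 0.22) and Pknox1 (0.56, SE 0.35) lay above 0 in both states, and these were the 2 genes called at this age. Their Ki67+ values, 1.19 (SE 0.21) and 0.98 (SE 0.32), lay within the errors of the Ki67- values.

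Change with age was tested in the same way within each genotype, as 6 or 12 against 4 months. The comparisons share their 4-month libraries with one another and with those between genotypes. They also use the Ki67+ values that chose the genes, so the same limit applies to their counts. In WT mice 3 of the 7 genes were lower at 6 than at 4 months, against 12.4% of all genes, and 0 higher, against 7.92%: A430033K04Rik by -0.80 (SE 0.24, adjusted p = 0.0189), AF529169 by -0.71 (SE 0.16, adjusted p = 0.00304) and D830035M03Rik by -0.68 (SE 0.16, adjusted p = 0.00371). All 7 had a negative difference, beside a median of -0.07 over all tested genes. The call of A430033K04Rik rested on both WT Ki67+ libraries at 6 months, and its difference was -0.78 without replicate 1 and -0.82 without replicate 2. At 12 months 1 of the 7, Spast, was lower than at 4 months, by -0.54 (SE 0.16, adjusted p = 0.0363), against 3.93% of all genes lower and 3.39% higher. This call was close to the threshold, and leaving out any of 7 libraries raised its adjusted p to between 0.0504 and 0.0695.

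In APP/PS1 mice, whose Ki67+ libraries had a mean oligodendrocyte marker level of 8.72 at 4 and 12.4 at 6 months, 4 of the 7 genes were higher at 6 than at 4 months, against 5.39% of all genes, and 0 lower, against 6.06%. The increase was 0.83 for Traf7 (SE 0.21, adjusted p = 0.0104), 0.77 for Spast (SE 0.20, adjusted p = 0.0117), 0.70 for AF529169 (SE 0.18, adjusted p = 0.0121) and 0.57 for D830035M03Rik (SE 0.18, adjusted p = 0.0345). Without APP/PS1 Ki67+ replicate 1 at 6 months, none of the 4 passed, and without any one of the other 3 libraries of APP/PS1 mice at 6 months D830035M03Rik did not pass (adjusted p from 0.0543 to 0.0785). Traf7 also missed without Ki67- replicate 2 (adjusted p = 0.051) and AF529169 without Ki67- replicate 1 (adjusted p = 0.0767), each of which leaves a group of 1 library. At 12 months 1 of the 7, AF529169, was higher than at 4 months, by 1.05 (SE 0.15, adjusted p = 1.65e-05), against 5.98% of all genes higher and 5.7% lower. Traf7, at 0.50 (SE 0.17, adjusted p = 0.0518), lay at the threshold, and 2 genes passed under 4 of 5 other settings and in 23 of the 42 fits that left out 1 library. AF529169 was called higher at 12 months in both the genotype and the age comparison whichever library was left out. The 3 WT Ki67- libraries at 12 months ran only from 7.41 to 7.43, so leaving out 1 of them could hardly change the genotype difference.

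Whether the genotype difference itself changed with age was tested after the values had been seen, and the limit of the genotype tests applies here too. From 4 to 6 months it grew by 1.41 for AF529169 (SE 0.24, adjusted p = 0.00581), by 1.25 for D830035M03Rik (SE 0.24, adjusted p = 0.0125) and by 1.17 for Traf7 (SE 0.28, adjusted p = 0.0349), which is 3 of 7 against 1.06% of all genes, with 0 of 7 against 0.181% in the other direction. From 4 to 12 months it grew by 0.83 for AF529169 (SE 0.21, adjusted p = 0.0168), 1 of 7 against 3.32% of all genes, and 0 against 2.9% in the other direction. From 6 to 12 months it shrank for D830035M03Rik, by -0.93 (SE 0.24, adjusted p = 0.0395), 1 of 7 against 1.63% of all genes, with 0 of 7 against 0.731% in the other direction. The other genes did not pass these tests. From 4 to 6 months only AF529169 passed without APP/PS1 Ki67+ replicate 1 at 6 months, where D830035M03Rik had an adjusted p of 0.0542 and Traf7 of 0.127, and Traf7 also missed without WT Ki67+ replicate 2 (0.0649) or APP/PS1 Ki67- replicate 2 (0.0743) of that age. From 6 to 12 months the call of D830035M03Rik was lost on leaving out any of 7 libraries, among them all 4 of APP/PS1 mice at 6 months, with an adjusted p up to 0.0888.

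Genes of the families and pathways of the 7 were called in both directions between Ki67+ and Ki67- libraries, at shares close to those of all genes. Of 134 such genes tested, 46 were higher and 42 lower in Ki67+ libraries (limma over all genes, mean of the 6 strata), against 34.5% and 29.7% of all genes, and their median difference was 0.08 against 0.04 for all genes. The counts per list below are to be set beside the same 34.5% and 29.7%, and nothing is read from them about a pathway. With each library centred on its own median, which moved the median of all genes to -0.09, the counts were 34 higher and 51 lower.

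Around Traf7, 1 of 5 TRAF adaptors tested was higher and 2 lower, and of 9 genes of the MEKK3-ERK5 cascade 3 were higher and 2 lower. Traf1 fell by 1.77 (SE 0.16, adjusted p = 2.7e-10). Map3k3, which encodes MEKK3, the kinase that TRAF7 binds, fell by 1.83 (SE 0.15, adjusted p = 5.98e-11), from 10.53 ± 0.57 to 8.68 ± 0.68 (SD, n = 21 each). Mapk7, which encodes ERK5, fell by 0.56 (SE 0.14, adjusted p = 0.00139), while Map2k5, the kinase between them, rose by 0.44 (SE 0.12, adjusted p = 0.00259), but by 0.12 (adjusted p = 0.423) without the 6-month libraries. The ERK5 target Klf4 rose by 0.36 (SE 0.14, adjusted p = 0.0242), but by 0.25 (adjusted p = 0.103) with centred libraries and by 0.31 (adjusted p = 0.0656) without APP/PS1 Ki67+ replicate 2 at 6 months. The calls of Traf6 (0.33, SE 0.13, adjusted p = 0.0306) and Traf2 (-0.43, SE 0.17, adjusted p = 0.0346) were lost without the 6-month libraries (adjusted p = 0.275 and 0.134).

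Around Rnf121, 5 of 22 genes of ER-associated degradation were higher and 7 lower. The stress-induced membrane protein gene Herpud1 rose by 0.79 (SE 0.11, adjusted p = 9.91e-07). Nploc4, a cofactor of the extraction ATPase p97, fell by 1.23 (SE 0.14, adjusted p = 1.88e-08) and the RING ligase Rnf185 by 1.12 (SE 0.16, adjusted p = 7.93e-07). Around Spast, 4 of 7 microtubule-severing genes were higher and 3 lower, 6 of 14 ESCRT-III and VPS4 genes higher and 3 lower, and 7 of 16 ER-shaping genes higher and 1 lower. Katnbl1 fell by 1.02 (SE 0.14, adjusted p = 3.5e-07), while Fignl1 rose by 0.46 (SE 0.09, adjusted p = 0.000104) and Fign by 0.47 (SE 0.10, adjusted p = 0.000148). Chmp2b of ESCRT-III rose by 1.05 (SE 0.16, adjusted p = 2.23e-06) and Chmp6 by 0.75 (SE 0.15, adjusted p = 8.04e-05), and the atlastin gene Atl2 rose by 0.66 (SE 0.11, adjusted p = 1.5e-05). The falls of Chmp4c (-0.36), Ist1 (-0.32) and Zfyve27 (-0.40) were smaller, and that of Zfyve27 was -0.29 (adjusted p = 0.0854) without APP/PS1 Ki67- replicate 1 at 6 months.

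Around Pknox1, 4 of 11 TALE homeobox genes tested were higher and 4 lower. Its possible partner gene Pbx2 fell by 1.01 (SE 0.13, adjusted p = 1.21e-07) and Tgif2, a repressor of TGF-beta targets, fell by 1.61 (SE 0.17, adjusted p = 6.18e-09), while Irx3 rose by 0.79 (SE 0.09, adjusted p = 1.02e-08) and Meis2 by 0.59 (SE 0.12, adjusted p = 0.000135). Of 16 corepressor genes of KRAB zinc-finger proteins, 6 were higher and 5 lower, with Cbx1 at 1.33 (SE 0.12, adjusted p = 2.66e-10) and Trim28, the core scaffold, at 0.41 (SE 0.09, adjusted p = 0.000481) among the higher ones and Atf7ip at -1.61 (SE 0.13, adjusted p = 3.74e-11) and Pphln1 at -0.71 (SE 0.11, adjusted p = 3e-06) among the lower ones. Of 22 Notch genes, 6 were higher and 10 lower. The receptor gene Notch3 rose by 1.08 (SE 0.09, adjusted p = 8.54e-11) and the ligand gene Dll3 by 0.85 (SE 0.09, adjusted p = 3.37e-09), and the receptor gene Notch4 fell by 1.37 (SE 0.14, adjusted p = 4.47e-09) and Rbpj, which encodes the DNA-binding effector, by 0.87 (SE 0.11, adjusted p = 2.11e-07). Of 12 genes of the mTOR complexes, 4 were higher and 5 lower, with Mlst8 (0.80) and Rptor (0.54) higher and Mapkap1 (-0.89) and Akt1s1 (-0.82) lower.

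**Figure D4:**
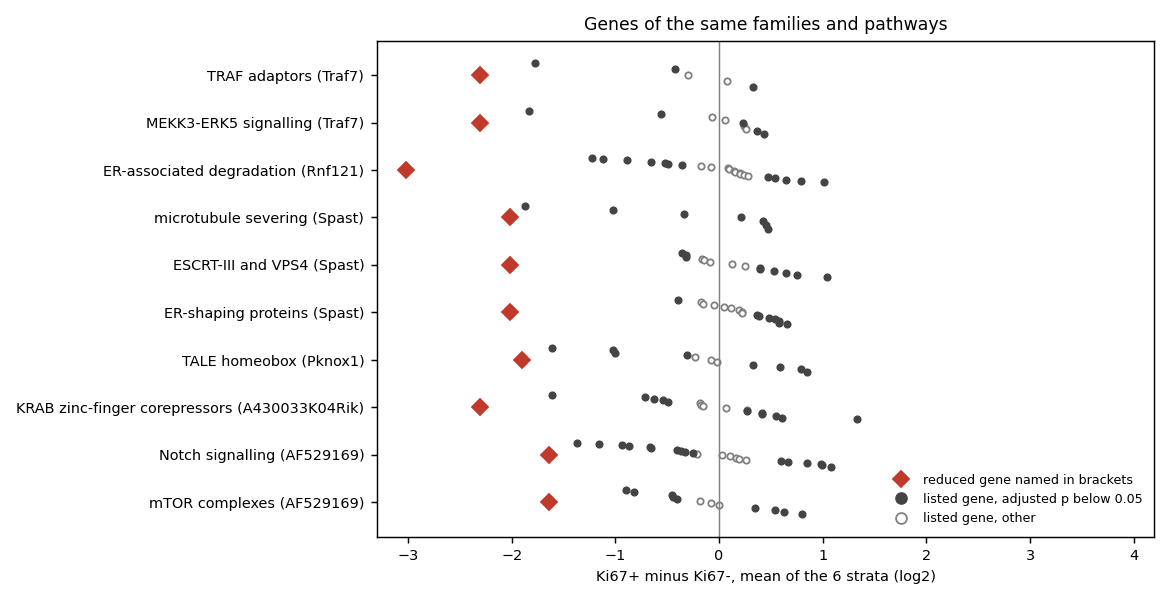
Ki67+ minus Ki67- difference on the log2 scale, mean of the 6 strata (x axis), of the tested genes of 10 lists (y axis), with filled circles for an adjusted p below 0.05, open circles for the others and red diamonds for the reduced gene named in brackets. In every list some genes lie to the right and some to the left of 0, and the diamonds are placed by the choice of these genes for their fall.

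Over the 42 libraries the 7 genes varied together, with Pearson's r between 0.76 and 0.94 (median 0.88) over their 21 pairs, which share the step that chose them. With the mean of each Ki67 state subtracted, r over the 12 group means ran from -0.09 to 0.94 with a median of 0.53. Genes share libraries and normalization, and these values are a description. The genes most like each of the 7 over the 42 libraries, by r, were A430033K04Rik (0.94) for Rnf121, Lrrc57 (0.95) for A430033K04Rik, Dnal4 (0.94) for Traf7, Bhmt (0.94) for Spast, Rnh1 (0.91) for Pknox1, Alk (0.96) for D830035M03Rik and Tbca (0.92) for AF529169. The next most alike genes were Lrrc57 and D830035M03Rik for Rnf121, Gm21680 and Lgals2 for A430033K04Rik, Hace1 and Siah1a for Traf7, Szrd1 and Gm21680 for Spast, X1110002L01Rik and Map3k12 for Pknox1, Tmem51os1 and Smc2os for D830035M03Rik, and LOC105244208 and Rhoc for AF529169. Lrrc57 appears for both Rnf121 and A430033K04Rik, and Gm21680 for both A430033K04Rik and Spast.

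With the mean of each state subtracted, AF529169 was most like Trem2 (r = 0.98 over 12 group means), Mpeg1 (0.98) and Syngr1 (0.98). Trem2 encodes a lipid-sensing receptor of microglia and Mpeg1 a perforin-like protein of macrophages. D830035M03Rik was most like Fibin (0.98), Alk (0.98) and Gprin3 (0.98), and A430033K04Rik like Ppm1g (0.96), Zfp72 (0.95) and Lrrc57 (0.95). Rnf121 was most like Pou3f3 (0.95), Ang (0.95) and Nrm (0.94), Spast like Top3a (0.95), Star (0.93) and Szrd1 (0.93), Traf7 like Glmn (0.94), Pigv (0.93) and Tsr1 (0.90), and Pknox1 like Sycp2 (0.89), Tuft1 (0.88) and Olfr607 (0.87). Pknox1 had the lowest of these values, and its 3 genes had small steps between the Ki67 states of their own, from -0.16 to 0.40.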

How the data were processed

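The 7 genes and the lists of related genes and markers were chosen with earlier results of these data known. The authors sorted fixed microglia by Ki67 staining, amplified full-length cDNA from reverse-crosslinked RNA and made unstranded libraries. Per the labels and the methods of the study, read 1 was demultiplexed with bcl2fastq 2.20 and quantified with kallisto 0.43.1 on GRCm38, and values were normalized with DESeq2 and batch-corrected with 10 surrogate variables. The deposited values are on a log2 scale and were handled as a score, since this clearing leaves no counts, and the depth behind a value is unknown.

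Groups came from the sample labels. The 42 columns had a rank of 32, so 10 directions were missing, and limma 3.58.1 (R 4.3.3) was fitted to all 12 groups with 20 residual degrees of freedom in place of 30, with eBayes (prior degrees of freedom 6.94). The test covered the 14910 of 19151 genes whose mean reached 7 in any group (4241 were left out), two-sided, with Benjamini-Hochberg adjustment over all of them at 0.05. For Ki67 steps, their differences between genotypes and differences within 1 state, only values and standard errors are given for the 7 genes. Named genes were the 7, Mki67, up to 2 called genes per direction with the lowest p in each list, and the 3 most alike genes by Pearson's r. Genes outside this rule (Eif1b, Tle1 and Clpb, and genes that overlap the 7) were named after values were seen. Simulated shifts of 2 on the log2 scale, larger than the tested differences of the 7 genes, were added to 200 genes. For APP/PS1 against WT at 4, 6 and 12 months, the fit recovered 200, 196 and 197 of them. Of its calls, 6.1%, 3.92% and 6.19% were false. The simulated noise had the size of the spread left after batch correction, so the simulation could not show whether p-values are too small. Alternatives were all genes, libraries of the ages compared only, removed directions not counted as spent, trend and robust options, centring of libraries, and each library left out in turn. Leaving out the 6-month libraries and the test of changes between ages were added after seeing the data. Some genes that the naming rule picked are not reported here.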

Additional observations from a re-analysis of the deposited data

Results flagged for a closer look

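Among the 49 sets of 4 or 5 libraries of 1 gene in 1 group, 2 held a library far from the others, and chance gives about 1 in 20. Rnf121 was 5.77 in 1 WT Ki67+ library at 12 months, against 5.60 to 5.62 in the other 3. A430033K04Rik was 9.73 in 1 WT Ki67- library at 4 months, against 8.97 to 9.11 in the other 4.

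The APP/PS1 minus WT difference, averaged over both Ki67 states, changed between ages by the limma test of the change itself, which was added after the values were seen. Calls of Traf7 and D830035M03Rik were lost on leaving out single libraries, as given above. From 4 to 6 months it rose by 1.17 for Traf7, by 1.25 for D830035M03Rik and by 1.41 for AF529169. From 4 to 12 months it rose by 0.83 for AF529169, and from 6 to 12 months it changed by -0.93 for D830035M03Rik.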

How the results depend on the processing

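No paired analysis was possible because the labels do not say which libraries came from 1 mouse. The replicate numbers used above are not from the labels and follow the order of the samples within each group. All 62 single values of the 7 and the related genes kept their direction under every alternative run, and 2857 of 2908 alternative values stayed on the same side of the threshold, 48 lost a call and 3 gained one. For the number of the 7 genes called, APP/PS1 against WT at 12 months went from 2 to 4 with removed directions not counted as spent and to 5 with libraries of the ages compared only. For 12 against 4 months in WT mice it went from 1 to 0 with trend and robust options. For 12 against 4 months in APP/PS1 mice it went from 1 to 2 with all genes, with removed directions not counted as spent, with centred libraries and with the ages compared only. With removed directions not counted as spent, the change of the genotype difference went from 3 to 5 (4 to 6 months) and from 1 to 4 (6 to 12 months).

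With each library left out in turn, the counts ran from 3 to 5 for APP/PS1 against WT at 6 months, from 0 to 1 for 12 against 4 months in WT mice, from 0 to 4 for 6 against 4 and from 1 to 2 for 12 against 4 months in APP/PS1 mice, and from 1 to 4 (4 to 6 months) and from 0 to 2 (6 to 12 months) for the change of the genotype difference. The median difference of the Ki67 steps between genotypes at 6 months ran from 1.45 to 1.98, and the median APP/PS1 minus WT difference in Ki67+ libraries at 6 months from 1.76 to 2.61. Where a group was left with 1 library, that library was assumed to vary like the other groups. The cause of these changes was not tested beyond the construction of each alternative. Groups of 2 libraries at 6 months, the unknown depth and the batch correction limit the precision.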
